A study of Mus musculus with 30 samples.

Results

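The messenger RNAs of 5 matrix metalloproteinases, the 4 tissue inhibitors of metalloproteinases and the related protease ADAMTS1 were followed in the left ventricle of 30 male C57BL6J mice. The 10 genes were *Mmp2*, *Mmp3*, *Mmp9*, *Mmp14*, *Mmp15*, *Timp1*, *Timp2*, *Timp3*, *Timp4* and *Adamts1*. They were taken by name, with symbols from the GENCODE mouse annotation, and the rule itself uses no measured value, although they were chosen with earlier results of these data known. All 10 had a row in both count tables, among 49671 genes listed for the peptide hearts and 56386 rows of the summed antibody table. In the peptide study, 7 mice received recombinant human Aβ42 and 7 received ScrAβ42, the scrambled control peptide, by daily intraperitoneal injection for 4 weeks. The labels give a start at 12 weeks of age and a dose of 1 mg per day, whereas the study's methods give 10 to 12 weeks and 1 µg per day. In the antibody study, 8 mice received 3D6, an antibody that neutralises Aβ42, and 8 received an isotype control antibody. By the study's methods, the antibodies were injected weekly at 0.75 mg/kg during a high-fat diet that both groups ate. The study's text gives 4 months of this diet, and its methods a heart scan after 12 weeks and death 2 weeks later. The design text on record instead describes these mice as given Aβ42.

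Matrix metalloproteinases are zinc proteases that cut collagens, laminins, proteoglycans and other proteins around cells. They are made as inactive proenzymes, and their activity depends on the removal of the prodomain and on the TIMPs, small proteins that occupy the active site. In the heart these enzymes are known for the turnover of the collagen network and of basement membranes, and much of their RNA comes from fibroblasts and other non-muscle cells. RNA levels, as measured here, give neither the amount of protein nor the activity of an enzyme. In bulk tissue, fewer cells of a type and less RNA per cell cannot be told apart.

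Peptide hearts had total counts of 4478991 to 6015767, and antibody hearts 6397192 to 8310478. No hearts of a group agreed within sampling noise, so each was counted as a replicate. Nothing in the labels ties hearts to cages or days, and p-values refer to the spread between these hearts. Marker genes of cardiomyocytes were the most abundant of the marker lists, with summed levels of 53450 to 102100 CPM (counts scaled to library size) among the peptide hearts, as the label of left ventricle implies. Markers of several other tissues were not even between the peptide groups. Atrial markers summed to 12.4 to 8417 CPM with Aβ42, with a median of 1158, and 3.82 to 3665 CPM with ScrAβ42, with a median of 10.5. The estimates of all 5 atrial markers were above 0 with Aβ42, with a median log2 fold change of 2.31, and 1 had an unadjusted p under 0.05. Those of all 5 adipocyte markers (median 2.32, 2 at an unadjusted p under 0.05) and all 6 mesothelial markers (median 0.84, 0 so) were also above 0, and those of all 5 red cell markers below 0 (median -1.37, 0 so). No marker of these lists passed an adjusted p of 0.05. The Aβ42 heart and the ScrAβ42 heart with the most fibroblast marker RNA in their groups are called heart A and heart S here. By that choice they led in those markers, at 4234 and 5588 summed CPM against 1396 to 3749 in the other 12 hearts. The heart at 3749, also given Aβ42, was nearer to heart A than to the next Aβ42 heart, at 2513. It also had more atrial marker RNA than heart S (4707 against 3665 CPM). In cardiomyocyte markers, hearts A and S had 53450 and 64150 summed CPM against 69040 to 102100. Their mitochondrial shares, 12.91% and 13.82%, were the lowest of the 14, against 17.26% to 22.17%. Heart A also had the most atrial (8417), adipocyte (633.3), mesothelial (189.7) and smooth muscle marker RNA (2391 summed CPM, against at most 1557 in the others). Results that rest on these hearts are given with and without them.

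For 8 of the 10 genes, a RefSeq promoter entry of GRCm38.p6 was found, and the bases before the start site were searched on both strands for 3 short motifs. These were TGANTCA, which the AP-1 family binds, TATAAA, the core of a TATA box, and GGGCGG, a GC box. Over all 32851 entries, the 250 bases before the start held TGANTCA in 6.75%, TATAAA in 12.4% and GGGCGG in 32.7%. The windows of *Mmp3*, *Mmp14*, *Timp3* and *Timp4* are shown because *Mmp3* alone held TGANTCA, *Mmp14* and *Timp3* varied with *Timp2* across the peptide hearts, and *Timp4* ran opposite to *Timp3* there and had the smallest p with 3D6. Capitals mark the motifs, and each sequence is given 5′ to 3′ on the strand of the gene.
*Mmp3*, chr9:7445572-7445821, plus strand: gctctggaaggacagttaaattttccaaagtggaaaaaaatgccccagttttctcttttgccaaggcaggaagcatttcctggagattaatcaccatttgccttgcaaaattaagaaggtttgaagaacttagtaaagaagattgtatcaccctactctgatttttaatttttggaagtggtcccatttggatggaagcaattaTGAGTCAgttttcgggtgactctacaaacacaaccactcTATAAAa
*Mmp14*, chr14:54431348-54431597, plus strand: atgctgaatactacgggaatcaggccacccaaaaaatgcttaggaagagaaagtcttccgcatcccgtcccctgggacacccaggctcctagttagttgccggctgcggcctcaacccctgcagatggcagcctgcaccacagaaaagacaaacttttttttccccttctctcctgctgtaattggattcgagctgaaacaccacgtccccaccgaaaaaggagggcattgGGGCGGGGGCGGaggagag
*Timp3*, chr10:86300162-86300371, plus strand: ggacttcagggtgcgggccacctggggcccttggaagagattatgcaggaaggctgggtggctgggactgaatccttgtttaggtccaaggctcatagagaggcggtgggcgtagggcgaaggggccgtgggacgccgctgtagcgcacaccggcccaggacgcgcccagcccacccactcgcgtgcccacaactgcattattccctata
*Timp4*, chr6:115252206-115252455, minus strand: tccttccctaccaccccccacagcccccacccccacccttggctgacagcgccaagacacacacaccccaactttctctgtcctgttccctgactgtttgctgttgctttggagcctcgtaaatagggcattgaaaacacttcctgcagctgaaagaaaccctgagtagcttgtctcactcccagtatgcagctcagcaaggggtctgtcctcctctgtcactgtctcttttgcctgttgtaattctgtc
In *Mmp3*, TGANTCA began 46 bases and TATAAA 7 bases before the start. *Mmp14* held GGGCGG at 19 and 13 bases before the start, end to end. *Adamts1* held TATAAA at 32 bases before the start and GGGCGG 3 times, and *Mmp15*, *Timp1*, *Timp2* and *Timp3* held GGGCGG once each. The match of *Timp3* lies 15 bases before the RefSeq start, beyond the 210 bases shown, which end where the GENCODE gene begins. The window of *Timp4* held none of these letters. GC content of the upstream bases was 37.6% for *Mmp3* and between 53.6% and 68% for the other 7, beside a median of 52.4% over all entries. A match is a description of the letters and not a measured binding site.

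Levels were first compared between the genes themselves, per kilobase of transcript. The length of a gene was the mean over its transcripts, weighted by their estimated counts in the antibody study. It was used for the peptide hearts too, whose counts were per gene, so a different mix of transcripts there is not taken into account. *Timp3*, the inhibitor that stays bound to the matrix, had the highest mean of the 10 in all 4 groups. It reached 86.7 ± 11.8 CPM per kilobase with Aβ42, 82.0 ± 23.2 with ScrAβ42, 28.5 ± 2.65 with 3D6 and 30.2 ± 5.23 with the control antibody (SD, n = 7, 7, 8 and 8). *Timp3* exceeded the gene next in order in each heart of every group. *Timp2*, *Mmp2* and *Timp4* followed in the peptide hearts, at 46.0, 21.9 and 18.1 CPM per kilobase with Aβ42. The order of *Mmp2* and *Timp4* was not firm, since *Mmp2* was above *Timp4* in 3 of 7 hearts with Aβ42 and 5 of 7 with ScrAβ42. *Mmp15* and *Adamts1* followed at 13.4 and 12.8 CPM per kilobase with Aβ42 and did not separate either, with *Mmp15* above in 5 of 7 hearts there and in 4 of 7 with ScrAβ42. *Adamts1* was above *Mmp14* in every peptide heart, and the ranges of these genes did not overlap. *Mmp3* and *Timp1* overlapped in every group. *Mmp9* had the lowest mean in each group, between 0.398 and 0.692 CPM per kilobase.

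**Figure D1:**
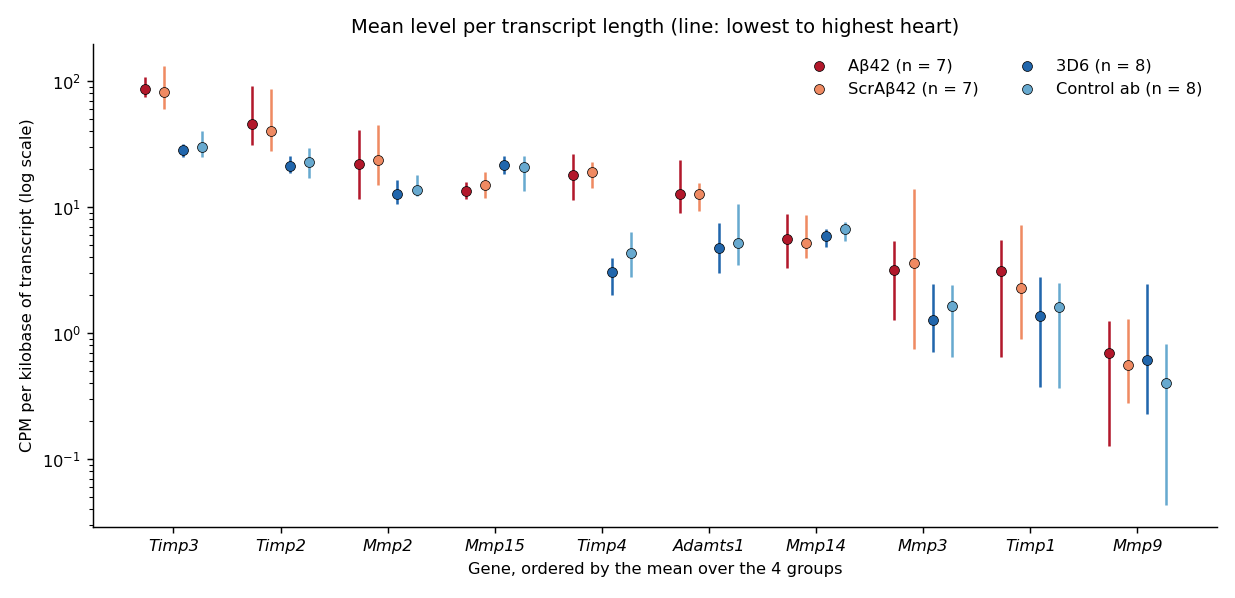
Mean level of each gene in CPM per kilobase of transcript, on a log axis, in the 4 groups. Points are group means and lines run from the lowest to the highest heart. *Timp3* is highest and *Mmp9* lowest in all 4 groups, and *Timp4* lies near 18 in the peptide hearts and between 3.07 and 4.33 in the antibody hearts.

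The order differed between the tables. In the hearts given 3D6, *Mmp15* was level with *Timp2*, at 21.6 ± 2.63 and 21.4 ± 3.03 CPM per kilobase, and was above it in 4 of 8 hearts. *Timp4* ranked below *Mmp14* and *Adamts1* there, at 3.07 ± 0.706 CPM per kilobase (SD, n = 8). With the control antibody, *Timp2* was above *Mmp15* in 6 of 8 hearts, and *Adamts1* above *Timp4* in only 4 of 8, at 5.23 ± 2.54 and 4.33 ± 1.16 CPM per kilobase. In CPM, *Timp4* ranged from 54.5 to 126.6 over the 14 peptide hearts and from 9.75 to 30.6 over the 16 antibody hearts, without overlap. *Timp3* also did not overlap, at 285.9 to 623.9 CPM against 117.6 to 191.2 CPM. By the median over hearts, 8 of the 10 genes were higher in the peptide table, and *Mmp14* and *Mmp15* were higher in the antibody table. Neither share was computed over all genes, so the 8 and the 2 without overlap are not read as traits of these genes. Mitochondrial shares also differed, at 12.91% to 22.17% of counts in the peptide hearts and 25.9% to 37.76% in the antibody hearts. The tables were counted per gene in one study and per transcript in the other and were normalised separately, so diet, treatment, study and counting cannot be told apart and no test was made between them.

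The effect of Aβ42 on these genes was tested against ScrAβ42, and the effect of 3D6 against the control antibody. With Aβ42 all 10 genes were tested, and with 3D6 9 of them, since *Timp1* there had a mean under 10 counts per heart. None passed an adjusted p of 0.05 with edgeR in either comparison, and neither did any other gene (0% of 11985 genes tested with Aβ42 and 0% of 12274 with 3D6). At an unadjusted p under 0.05, the background was 6.51% of all genes (780) with Aβ42 and 3.64% (447) with 3D6. Of the metalloproteinase, TIMP and *Adamts1* genes, 0 of 10 and 1 of 9 passed there, the 1 being *Timp4* with 3D6. At the adjusted threshold DESeq2 called 12 peptide genes and 0 antibody genes, limma-voom called 0 in both, and none of the 10 genes was among the calls. The groups overlapped for all 10 genes in both studies. With Aβ42, 6 genes were higher and 4 lower, with a median log2 fold change of 0.05 beside 0.00 over all genes tested. With 3D6, 2 were higher and 7 lower, with a median of -0.10 beside -0.01.

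**Figure D2:**
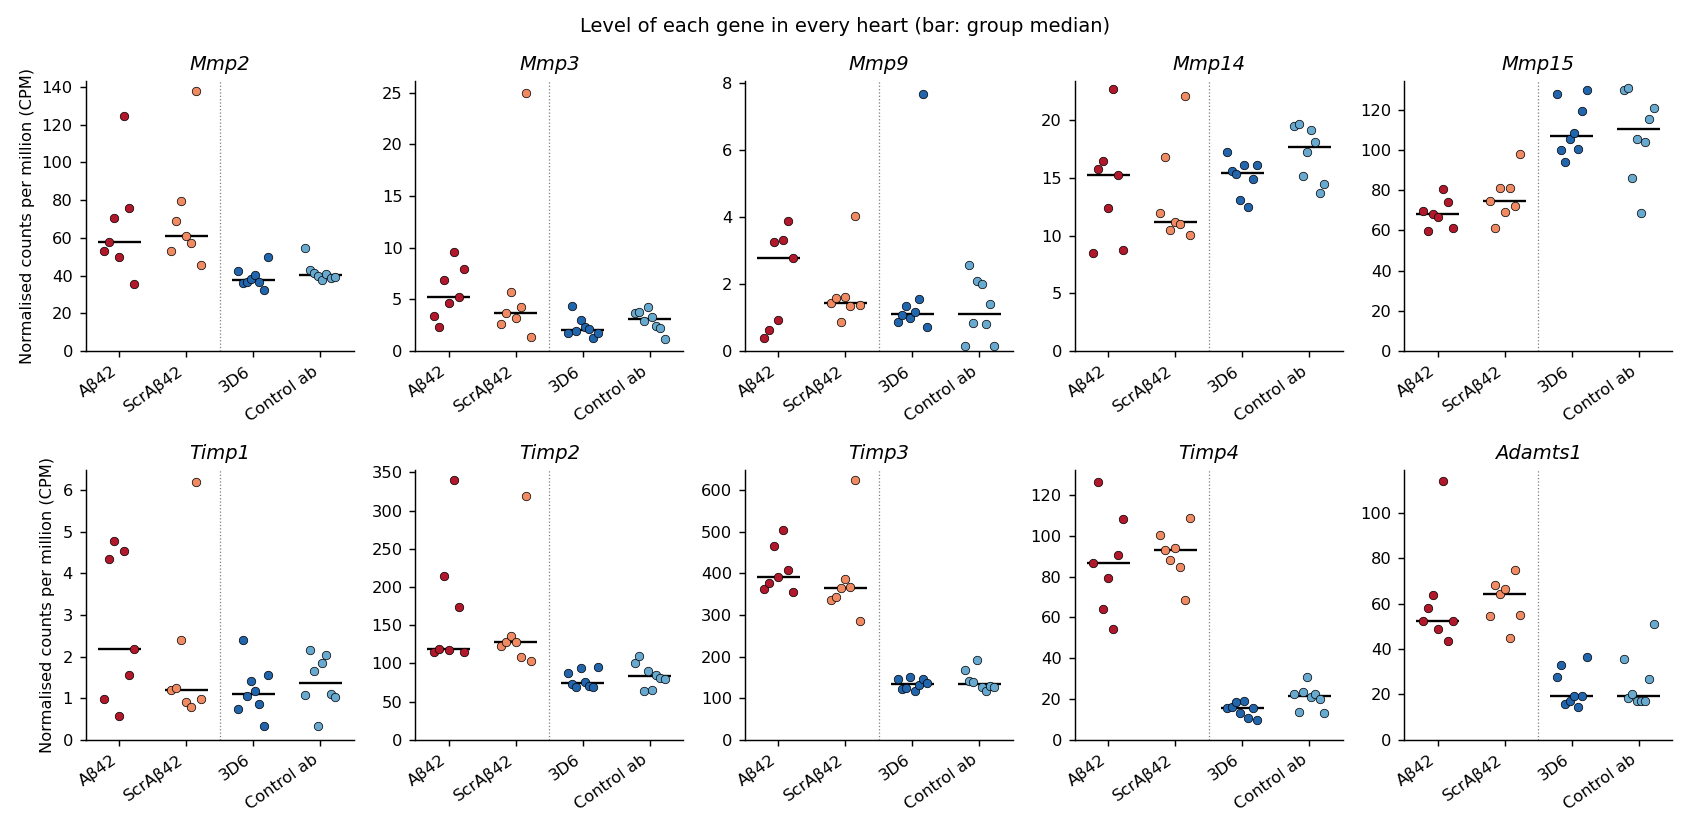
CPM of each gene in every heart, in panels with axes from 0. Points are hearts, bars are group medians, and the dotted line separates the peptide study from the antibody study. The treated and control hearts of each study overlap in every panel, and heart S is the highest of its group in 8 of the panels.

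The gelatinases are the secreted enzymes MMP2, which is made constitutively by fibroblasts, and MMP9, which is stored by neutrophils and induced in inflammation. *Mmp2* (ENSMUSG00000031740) lies on chromosome 8, from 92827291 to 92853420 on the plus strand of GRCm38. Its levels were 35.5 to 124 CPM with Aβ42, with a median of 57.9, and 45.7 to 138 CPM with ScrAβ42, with a median of 60.9. The highest heart of each group was heart A or S, and the groups overlapped over nearly their whole range. For this gene the log2 fold change was -0.10 ± 0.27 (SE), with a 95% interval from -0.68 to 0.47 (edgeR adjusted p = 0.962). Without heart S it became 0.14, and without both hearts -0.09. Among the antibody hearts, *Mmp2* was 32.1 to 49.9 CPM with 3D6, with a median of 37.4, and 37.6 to 54.5 CPM with the control antibody, with a median of 40.3. edgeR gave a log2 fold change of -0.10 ± 0.10, with an interval from -0.30 to 0.10 (adjusted p = 0.946). The value was -0.03 without control 11, the highest control heart, and 0.01 with the fibroblast score as covariate. Of the 8 hearts given 3D6, 6 were below the control median.

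*Mmp9* (ENSMUSG00000017737, chromosome 2, 164940780-164955850, plus strand) was close to the limit of detection, with 2 to 24 counts in each peptide heart and 1 to 48 in each antibody heart. It was 0.395 to 3.87 CPM with Aβ42 and 0.874 to 4.02 CPM with ScrAβ42, with medians of 2.78 and 1.43. Among the Aβ42 hearts, 4 were at 2.78 CPM or above and 3 were below the control median. This was a log2 fold change of 0.30 ± 0.46, with an interval from -0.69 to 1.28 (adjusted p = 0.945). Without heart A, heart S or both, *Mmp9* was under the minimum of 10 counts and was not tested, and leaving out each other heart moved the value between 0.11 and 0.47. With 3D6, *Mmp9* was 0.706 to 7.67 CPM with a median of 1.11, and with the control antibody 0.135 to 2.56 CPM with a median of 1.11. For this gene the log2 fold change of 0.59 ± 0.57 had an interval from -0.59 to 1.77 (adjusted p = 0.946), and the heart 3D6 4 alone held 48 counts. Without it *Mmp9* was under the minimum of 10 counts and was not tested. Of the neutrophil markers, *Ly6g* and *Camp* were at 0 in every antibody heart and the others of the 8 were not at 0 throughout. The summed list was 1.98 to 12.2 CPM over the peptide hearts and 0.468 to 3.85 CPM over the antibody hearts. The sums did not order the hearts as *Mmp9* did. 3D6 4 had the most of the 3D6 group, at 3.36 CPM, but control 22 had 3.85 CPM with *Mmp9* at 2.0 CPM. The peptide heart with the highest sum, 12.2 CPM, had *Mmp9* at 0.937 CPM, whereas heart A had a sum of 2.06 CPM and *Mmp9* at 3.3 CPM. Heart S was high in both, with a sum of 11.9 CPM and the most *Mmp9* of the peptide hearts, 4.02 CPM.

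Stromelysin-1, the product of *Mmp3*, cuts many matrix proteins and activates other proMMPs. *Mmp3* (ENSMUSG00000043613, chromosome 9, 7445822-7455975, plus strand) was 2.28 to 9.62 CPM with Aβ42, with a median of 5.22, and 1.36 to 25.0 CPM with ScrAβ42, with a median of 3.71. Of the Aβ42 hearts, 5 of 7 were above the control median, but the highest value of all was that of heart S. The estimated log2 fold change was -0.21 ± 0.53, with an interval from -1.34 to 0.92 (adjusted p = 0.962). The direction rested on that heart, since the value was 0.73 without it (adjusted p = 0.468) and 0.54 without both outlying hearts (adjusted p = 0.738). With 3D6, *Mmp3* was 1.28 to 4.40 CPM with a median of 2.04, and with the control antibody 1.17 to 4.31 CPM with a median of 3.08. Here 7 of 8 treated hearts were below the control median, and the log2 fold change was -0.35 ± 0.27, with an interval from -0.91 to 0.20 (adjusted p = 0.946). It was -0.56 without 3D6 16, at an unadjusted p under 0.05 (adjusted p = 0.924), and -0.10, -0.15 and -0.21 with the fibroblast score, the mitochondrial share or the endothelial score as covariate.

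The membrane-type enzymes MMP14 and MMP15 sit on the cell surface, and MMP14 is the main activator of proMMP2, which it holds through TIMP2. *Mmp14* (ENSMUSG00000000957, chromosome 14, 54431612-54445364, plus strand) was 8.49 to 22.7 CPM with Aβ42 and 10.1 to 22.1 CPM with ScrAβ42, with medians of 15.3 and 11.1. For this gene the log2 fold change was 0.09 ± 0.23 (interval -0.40 to 0.58, adjusted p = 0.962), and it became -0.07 without heart A. With 3D6, *Mmp14* was 12.5 to 17.2 CPM with a median of 15.5, and with the control antibody 13.7 to 19.7 CPM with a median of 17.7. All 8 treated hearts were below the control median, and 5 of the 8 control hearts were above the highest treated heart. edgeR gave a log2 fold change of -0.18 ± 0.10, with an interval from -0.39 to 0.02, and the adjusted p was 0.946. An exact permutation test over the hearts, two-sided, gave p = 0.0749. The estimates of all 10 fibroblast markers were also below 0 with 3D6, none of them at an unadjusted p under 0.05. With their score as covariate the value of *Mmp14* was -0.07, and with the endothelial score -0.09. With the atrial score it was -0.21, and without control heart 3 or control heart 8 it was -0.22 or -0.21, each at an unadjusted p under 0.05 (edgeR adjusted p = 0.986, 0.821 and 0.699).

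*Mmp15* (ENSMUSG00000031790, chromosome 8, 95352268-95375080, plus strand) was the most even of the 5 enzymes across the peptide hearts. It was 59.8 to 80.5 CPM with Aβ42, with a median of 68.0, and 61.0 to 98.2 CPM with ScrAβ42, with a median of 74.8. Of the Aβ42 hearts, 6 of 7 were below the control median. For this gene the log2 fold change of -0.16 ± 0.10 (interval -0.37 to 0.04) had the smallest p of the 10 genes in this study, 0.113, and an adjusted p of 0.807. The exact permutation p was 0.139. Hearts A and S, at 80.5 and 72.0 CPM, did not stand apart in this gene. Without heart A the estimate was -0.21 and without both -0.22, each at an unadjusted p under 0.05 (adjusted p = 0.965 and 0.594), and without the ScrAβ42 heart at 98.2 CPM it was -0.09. With 3D6, *Mmp15* was 94.2 to 129.8 CPM, and with the control antibody 68.4 to 130.7 CPM, with medians of 106.8 and 110.4. This was a log2 fold change of 0.04 ± 0.12 (interval -0.21 to 0.29, adjusted p = 0.963). Its sign was not firm, since it was -0.03 without control 22 and also turned under alternatives given in the last section.

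Of the inhibitors, TIMP1 is the inducible one and TIMP2 takes part in the activation of proMMP2 as well as in inhibition. *Timp1* (ENSMUSG00000001131, chromosome X, 20870166-20874735, plus strand) was 0.562 to 4.78 CPM with Aβ42, with a median of 2.18, and 0.774 to 6.20 CPM with ScrAβ42, with a median of 1.20. Counts ran from 3 to 37 per heart. The estimated log2 fold change was 0.45 ± 0.54, with an interval from -0.69 to 1.6 (adjusted p = 0.922), and 5 of 7 Aβ42 hearts were above the control median. The value moved to 1.14 without heart S and to 0.26 without heart A, and without both the gene was under the count minimum. In the antibody study, *Timp1* was at 2 to 18 counts per heart, or 0.320 to 2.40 CPM with 3D6 and 0.319 to 2.16 CPM with the control antibody. A fit with no filter on counts gave a log2 fold change of -0.23 (edgeR adjusted p = 0.889).

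*Timp2* (ENSMUSG00000017466, chromosome 11, 118301069-118355740, minus strand) was 115 to 340 CPM with Aβ42, with a median of 119, and 103 to 319 CPM with ScrAβ42, with a median of 128. The highest hearts were A, at 339.7 CPM, and S, at 319.1 CPM, which were 2.81 and 2.64 times the median of the other 12. The log2 fold change was 0.19 ± 0.30 (interval -0.44 to 0.82, adjusted p = 0.945), and it was -0.07 without heart A and 0.23 without both hearts. With 3D6 it was 69.0 to 95.2 CPM with a median of 74.6, and with the control antibody 63.8 to 109.5 CPM with a median of 82.9. edgeR gave a log2 fold change of -0.09 ± 0.12 (interval -0.33 to 0.16, adjusted p = 0.946). *Timp2* shares part of its span with *Cep295nl*, a gene on the same strand.

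TIMP3 binds to the matrix and also inhibits ADAM17 and ADAMTS enzymes. *Timp3* (ENSMUSG00000020044, chromosome 10, 86300372-86349506, plus strand) was 356 to 505 CPM with Aβ42, with a median of 391, and 286 to 624 CPM with ScrAβ42, with a median of 365. Of the Aβ42 hearts, 5 of 7 were above the control median, and 3 control hearts were below the lowest of them. This was a log2 fold change of 0.08 ± 0.15, with an interval from -0.23 to 0.39 (adjusted p = 0.950). It was 0.24 without heart S, 0.02 without heart A and 0.18 without both. Without the ScrAβ42 heart at 286 CPM it was 0.02. With 3D6 the range was 118 to 150 CPM and with the control antibody 118 to 191 CPM, with medians of 134 and 135. The estimated log2 fold change was -0.08 ± 0.10 (interval -0.29 to 0.13, adjusted p = 0.946), and -0.01 without control 19, the heart at 191 CPM.

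*Timp4*, the inhibitor known for its high level in the heart, had the smallest p of these genes with 3D6. *Timp4* (ENSMUSG00000030317) lies on chromosome 6, from 115241892 to 115252205 on the minus strand. It was 9.75 to 19.2 CPM with 3D6, with a median of 15.5, and 13.3 to 30.6 CPM with the control antibody, with a median of 21.6. All 8 hearts given 3D6 were below the control median, 6 of 8 control hearts were above the highest treated heart, and 2 control hearts, 8 and 15, lay within the treated range. Means were 14.8 ± 3.40 and 20.9 ± 5.60 CPM (SD, n = 8 each). The log2 fold change was -0.49 ± 0.17, which is 0.71-fold (95% interval 0.554 to 0.91), and the adjusted p was 0.946. The unadjusted edgeR p was 0.00932, and the exact permutation test over the hearts, two-sided, gave p = 0.0247 before and 0.965 after adjustment over all genes. Leaving out each heart in turn moved the log2 fold change between -0.57 and -0.40. Per transcript, the coding transcript ENSMUST00000032462 held at least 75.1% of the estimated counts of the gene in every heart, and it gave a log2 fold change of -0.55.

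Endothelial and fibroblast markers had estimates below 0 in this comparison, and none passed an adjusted p of 0.05. Estimates were also below 0 for 4 of 4 atrial, 2 of 2 mesothelial and 5 of 5 red cell markers tested. The same held for 6 of 7 macrophage and 6 of 7 smooth muscle and pericyte markers, but for only 4 of 8 cardiomyocyte markers. None of these passed the adjusted threshold either. For the 10 fibroblast markers the median log2 fold change was -0.17, with 0 of 10 at an unadjusted p under 0.05 and summed levels of 1109 to 1557 CPM against 1194 to 2083. With the fibroblast score in the fit, *Timp4* was at -0.47 on the log2 scale. For the 8 endothelial markers the median was -0.21, and 3 of them, *Pecam1*, *Emcn* and *Cldn5*, had an unadjusted p under 0.05, beside 3.64% of all genes. Their sum was 995.5 to 1173 CPM with 3D6 and 1023 to 1840 CPM with the control antibody, and none was at 0 in all hearts. The top of both control ranges was 1 heart, control 22, since the other controls had at most 1291 CPM of endothelial and 1609 CPM of fibroblast markers. That heart also had the lowest mitochondrial share of the antibody hearts, 25.9%, and without it the log2 fold change of *Timp4* was -0.49. With the endothelial marker score as a covariate, an alternative chosen after the values were seen, the log2 fold change of *Timp4* was -0.37 and its unadjusted p in the edgeR fit 0.105. Atrial markers, with a median log2 fold change of -0.974, had median sums of 98.45 CPM with 3D6 and 2.882 CPM with the control antibody. Controls 15 and 8, within the treated *Timp4* range, had 2776 and 1.462 CPM of them. The 3D6 hearts with the least *Timp4*, 7 and 24, had 530.3 and 2.125 CPM. Next came 3D6 20, at 13.2 CPM of *Timp4*, with 668.0 CPM of atrial markers, the most of its group. The 3D6 heart with the most *Timp4*, 21 at 19.2 CPM, had 192.2 CPM of them. With the atrial score as covariate, *Mmp15* alone changed sign, and the estimate of *Timp4* stayed below 0. In the peptide study *Timp4* was 54.5 to 126.6 CPM with Aβ42 and 68.7 to 109 CPM with ScrAβ42, with medians of 86.9 and 92.8. The log2 fold change there was -0.06 ± 0.16 (interval -0.40 to 0.28, adjusted p = 0.962), so the value was below 0 in both comparisons. It became 0.03 without heart A, the heart with the least *Timp4*. The lowest peptide hearts in *Timp4* were heart A, another Aβ42 heart and heart S, at 54.5, 64.2 and 68.7 CPM. They had 8417, 4707 and 3665 CPM of atrial markers. An Aβ42 heart with 4357 CPM of atrial markers had 90.8 CPM of *Timp4*. The relation of *Timp4* to the atrial markers was not tested.

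*Timp1*, *Timp3* and *Timp4* lie inside the synapsin genes *Syn1*, *Syn3* and *Syn2*, on the opposite strand. *Timp4* also overlaps *Gm17482* on the opposite strand. The library kit kept the strand, but whether counting used it is not given in the sources used here, so reads of these overlapping genes may be shared. *Syn2* was at 10.7 ± 3.54 CPM with Aβ42 and 8.99 ± 3.89 with ScrAβ42 (SD, n = 7), far under *Timp4*, and at 2.11 ± 1.13 with 3D6 and 2.05 ± 2.15 with the control antibody (n = 8). In the peptide study, *Syn1* and *Syn3* each had a mean under 1 CPM in both groups and were not tested. *Syn3* was tested only in the antibody study, at 32.8 ± 7.02 CPM with 3D6 and 42.6 ± 17.2 with the control antibody. The log2 fold change of *Syn3* was -0.38 (edgeR adjusted p = 0.946).

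ADAMTS1 is a secreted protease with thrombospondin motifs that cuts the proteoglycans versican and aggrecan. *Adamts1* (ENSMUSG00000022893, chromosome 16, 85793827-85803113, minus strand) was 43.5 to 114 CPM with Aβ42, with a median of 52.4, and 45.1 to 75.0 CPM with ScrAβ42, with a median of 64.2. Of the Aβ42 hearts, 6 of 7 were below the control median and the other, heart A, was the highest of all. The log2 fold change of 0.02 ± 0.19 (interval -0.38 to 0.42, adjusted p = 0.991) became -0.20 without that heart. With 3D6, *Adamts1* was 14.6 to 36.4 CPM with a median of 19.4, and with the control antibody 16.9 to 51.2 CPM with a median of 19.2. edgeR gave a log2 fold change of -0.15 ± 0.25 (interval -0.68 to 0.38, adjusted p = 0.946), and 0.08 without the control heart 8, which held the 51.2 CPM.

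**Figure D3:**
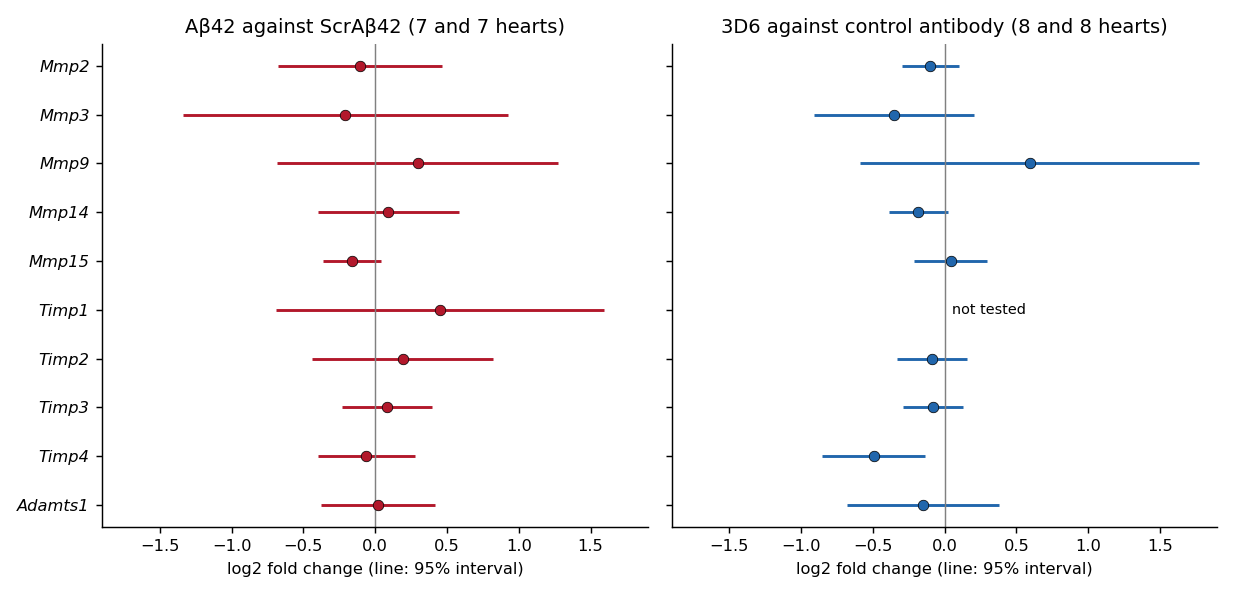
Log2 fold change of each gene with its 95% interval from edgeR, for Aβ42 against ScrAβ42 and for 3D6 against the control antibody. Every interval crosses 0 except that of *Timp4* with 3D6, from -0.85 to -0.14, and *Timp1* was not tested in the antibody study.

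The directions in the peptide study changed when the atrial markers were taken into the fit. These markers were uneven between the groups, with median sums of 1158 CPM with Aβ42 and 10.5 CPM with ScrAβ42. The fit therefore cannot fully separate them from the treatment. When an atrial score, the mean standardised log2 CPM of those markers, entered the fit, 7 of the 10 genes changed sign, so that the estimates of 9 were below 0 and that of *Timp4* above, and none passed an adjusted p of 0.05. The estimate for *Mmp2* went from -0.10 to -0.53 (edgeR adjusted p = 0.567) and that for *Mmp3* from -0.21 to -0.86 (edgeR adjusted p = 0.625). Both then had an unadjusted p under 0.05. So did *Mmp2* with the fibroblast score (-0.18), *Mmp3*, *Timp1* and *Timp3* without heart S, and *Mmp15* without heart A, without both hearts or without 1 further ScrAβ42 heart, with adjusted p of 0.382 to 0.965. *Timp2* moved from 0.19 to -0.36 and *Mmp9* from 0.30 to -0.55 on the log2 scale. Between the studies, 4 of the 9 genes tested in both, *Mmp14*, *Timp2*, *Timp3* and *Adamts1*, were higher with Aβ42 and lower with 3D6. *Mmp15* was lower and then higher, *Mmp9* was higher in both, and *Mmp2*, *Mmp3* and *Timp4* were lower in both. No gene passed in either study, so these are directions of estimates and not of changes.

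Whether the 10 genes varied together from heart to heart was examined on deviations from the group mean of log2 CPM. Of 45 pairs in the peptide study, 5 passed an adjusted p of 0.05 over the pairs by Spearman's rho, from 100000 permutations within groups. By Pearson's r 25 passed. *Mmp2* and *Timp2* gave Spearman's rho of 0.868 (permutation p = 0.0001, adjusted 0.00405) and Pearson's r of 0.926 (p = 5e-05) over 14 hearts. *Timp2* and *Timp3* gave a rho of 0.855 (permutation p = 0.00018, adjusted 0.00405) and an r of 0.901 (p = 8e-05). *Mmp14* and *Timp2* gave a rho of 0.802 (permutation p = 0.00086, adjusted 0.0129) and an r of 0.831 (p = 0.00039), and *Mmp2* and *Timp3* a rho of 0.802 (p = 0.00149, adjusted 0.0168) and an r of 0.863 (p = 8e-05). *Timp4* ran the other way, with a rho against *Timp3* of -0.736 (permutation p = 0.00537, adjusted 0.0483) and an r of -0.739 (p = 0.0002). *Mmp2* with *Mmp14* did not pass by rho, at 0.705 (permutation p = 0.0093, adjusted 0.0633), and had an r of 0.845 (p = 0.00065).

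The calls for these pairs were lost without hearts A and S, and a test on fewer hearts can lose calls by itself. Without both, rho was 0.776 for *Mmp2* with *Timp2*, 0.727 for *Timp2* with *Timp3* and -0.685 for *Timp3* with *Timp4*, and 0 of 45 pairs passed the adjustment. Without the 2 hearts farthest from the median of the first gene of each pair, r was 0.752, 0.756 and -0.685 for these pairs, and again 0 of 45 passed. With the fibroblast marker score removed from each gene, rho was -0.27, -0.03 and 0.10 for the same pairs, and 0 of 45 passed. Relative to the median of the other 12, hearts A and S had 2.16 and 2.4 times the *Mmp2*, 2.81 and 2.64 times the *Timp2*, and 0.594 and 0.748 times the *Timp4*. The part of tissue composition in these relations was not tested beyond these values.

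**Figure D4:**
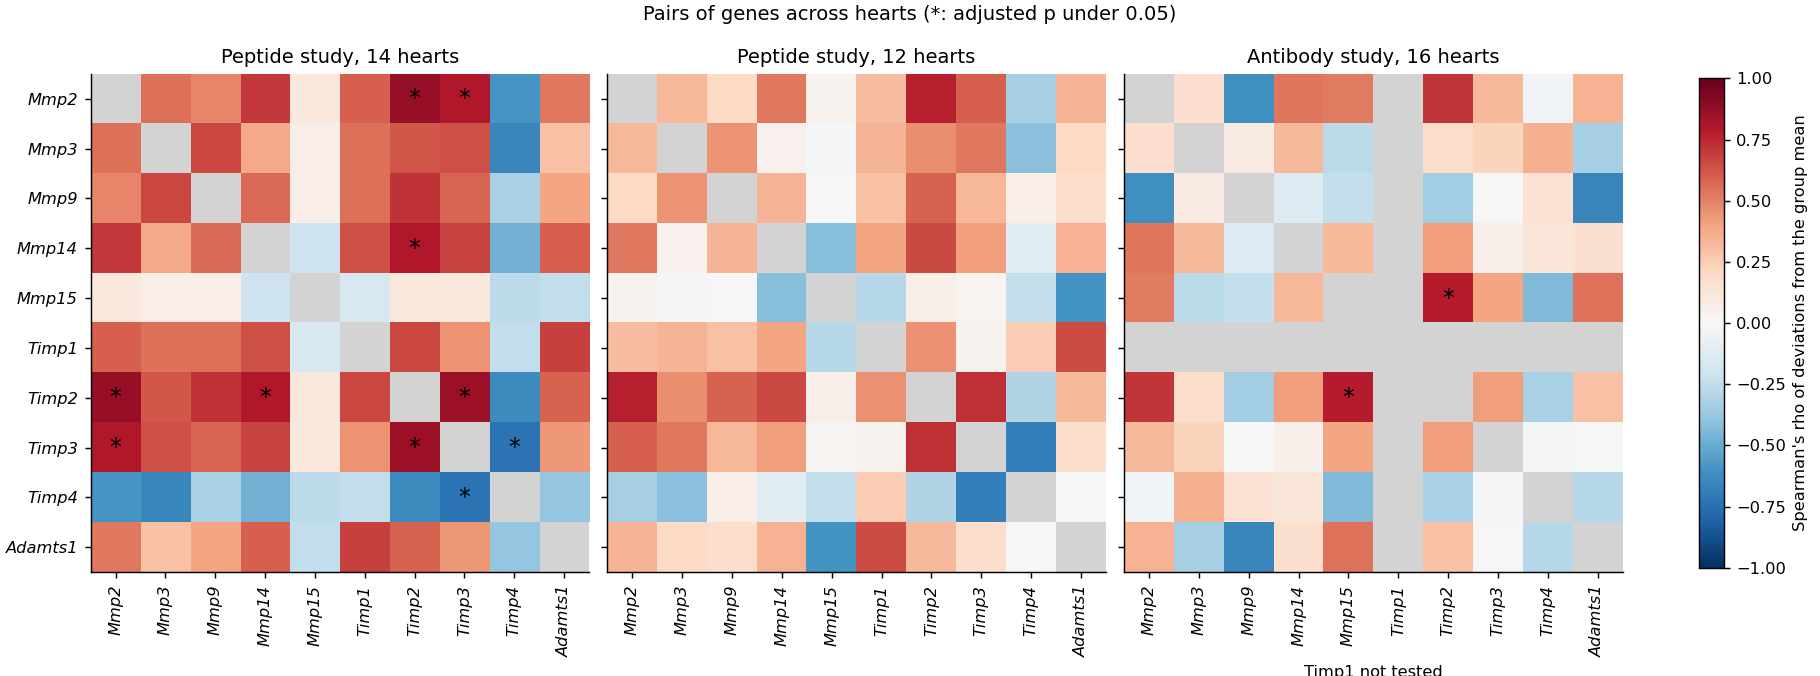
Spearman's rho of deviations from the group mean for each pair of genes, over the 14 peptide hearts, over the 12 without hearts A and S, and over the 16 antibody hearts. Stars mark an adjusted permutation p under 0.05, which 5, 0 and 1 pairs reach, and grey cells were not tested.

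Among the antibody hearts, 1 of 36 pairs passed, and it was not one of the 5. *Mmp15* and *Timp2* gave a rho of 0.785 (permutation p = 0.00086, adjusted 0.031) and an r of 0.754 (p = 0.00197, adjusted 0.0709) over 16 hearts. With the fibroblast score removed, rho was 0.835 (adjusted p = 0.00936 by permutation). The call was lost without the 2 farthest hearts (r of 0.669, rho of 0.653, adjusted p = 0.316 by permutation), with Pearson's r, and with the atrial score removed. *Mmp2* and *Timp2* came next, with a rho of 0.718 (permutation p = 0.00325, adjusted 0.0585) and an r of 0.641 (p = 0.00547). None of the 5 peptide pairs passed among the antibody hearts, although all 5 had a rho of the same sign there. It was 0.421 for *Mmp14* with *Timp2*, 0.415 for *Timp2* with *Timp3* and 0.326 for *Mmp2* with *Timp3*. *Timp3* with *Timp4* had a rho of -0.015 (permutation p = 0.963) and an r of 0.203 (p = 0.497) there, with opposite signs.

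**Figure D5:**
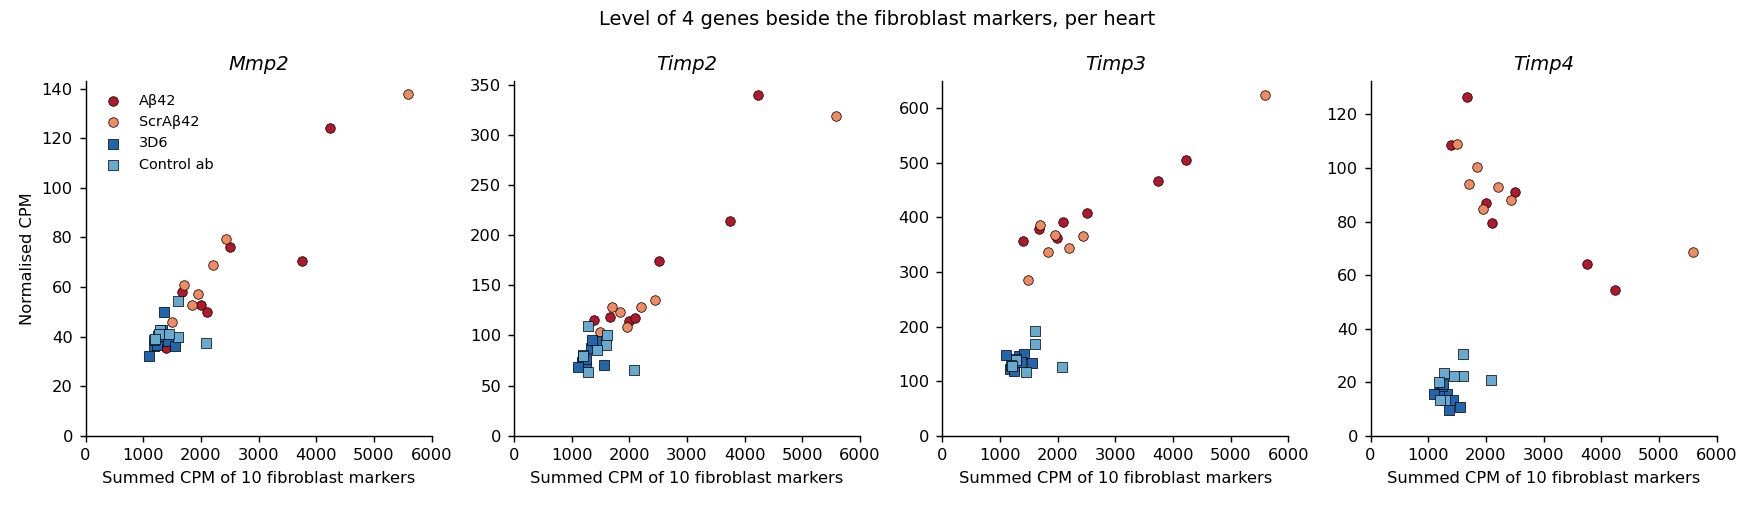
CPM of *Mmp2*, *Timp2*, *Timp3* and *Timp4* in each heart against the summed CPM of 10 fibroblast markers, with circles for the peptide study and squares for the antibody study. The hearts A and S, at 4234 and 5588 summed CPM, have the most *Mmp2*, *Timp2* and *Timp3*, and the antibody hearts lie between 1109 and 2083.

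The genes nearest to each of the 10 were sought among all genes with a mean of at least 10 CPM, by rho of the same deviations over the 14 peptide or 16 antibody hearts, as a description. In the peptide study, *Mmp2* was nearest to *Ccdc80* (0.969), *Ugdh* (0.965) and *Pdgfra* (0.938), a receptor that marks fibroblasts. *Timp2* was nearest to *Ecm1* and *Col6a1* (0.978 each), genes of matrix proteins, and to *Gm2a* (0.965). *Timp3* was nearest to *Arl13b* (0.969), *Ptpn23* (0.965) and *Tnxb* (0.956), and *Timp4* to *Fah* (0.969). *Mmp14* was nearest to *Itga5* (0.93), an integrin subunit that binds fibronectin, *Adamts1* to *Tmsb4x* (0.903) and *Mmp15* to *Cnst* (0.859). The 3 genes with fewest counts were nearest to *Prss23* (*Mmp9*, 0.947), *Angptl7* (*Timp1*, 0.921) and *Pld3* (*Mmp3*, 0.89).

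In the antibody study, *Mmp2* was nearest to *Vasp* (0.915), *Timp2* to *Sulf1* (0.906), *Mmp15* to *Ppfibp1* (0.962) and *Timp4* to *Ehd1* (0.888). *Adamts1* was nearest to *Nedd9* (0.959), *Skil* (0.909) and *Fosl2* (0.903), the last a member of the AP-1 family. *Timp3* was nearest to *Ap2b1* (0.841), *Mmp14* to *Tmem176b* (0.832), *Mmp3* to *Bag5* (0.894) and *Mmp9* to *Tada3* (0.835). Each of these is among the 3 highest of all genes compared over few hearts, so a high value is no test of a relation.

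Further genes of matrix turnover were counted from lists, and their unadjusted counts are to be read beside the backgrounds of 6.51% with Aβ42 and 3.64% with 3D6. Of 18 other matrix metalloproteinases, 5 were tested in each study. In the peptide study 3 were higher and 2 lower, and *Mmp28*, a secreted enzyme, was at 8.88 ± 1.49 CPM with Aβ42 and 7.17 ± 1.19 CPM with ScrAβ42. Its log2 fold change was 0.31 ± 0.14 (edgeR adjusted p = 0.742). Among the antibody hearts, 1 was higher and 4 lower. None of the 5 passed an adjusted p of 0.05 in either study, and *Mmp28* alone had an unadjusted p under 0.05. The highest per kilobase were *Mmp23*, *Mmp11* and *Mmp28*, at 7.86, 2.97 and 2.47 CPM per kilobase in the peptide hearts.

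Of 23 other ADAMTS and ADAMTS-like genes, 16 were tested in each study, with 10 higher and 6 lower with Aβ42 and 3 higher and 13 lower with 3D6. *Adamts8* was at 6.15 ± 8.39 CPM with Aβ42 and 1.28 ± 1.47 CPM with ScrAβ42, a log2 fold change of 2.24 (adjusted p = 0.701), with an exact permutation p of 0.156. *Adamtsl5* was the most abundant per kilobase in both studies, at 35.1 and 33.3 CPM per kilobase. None of the 16 passed the adjusted threshold in either study.

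Of 10 membrane-bound ADAM proteins, which are proteases or relatives of them without protease activity, 9 were tested in the peptide study, and both directions occurred at an unadjusted p under 0.05. *Adam22*, which encodes a relative that lacks the active site, was at 23.2 ± 4.33 CPM with Aβ42 and 17.4 ± 1.92 CPM with ScrAβ42, a log2 fold change of 0.41 (adjusted p = 0.639). *Adam17*, the enzyme that TIMP3 inhibits and that sheds tumour necrosis factor, was at 34.9 ± 3.55 and 41.3 ± 4.15 CPM, a log2 fold change of -0.24 (adjusted p = 0.656), with an exact permutation p of 0.0105. In the antibody study, 4 of 8 were higher and 4 lower, and none had an unadjusted p under 0.05.

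Of 22 activators, inhibitors and clearance receptors of matrix proteases, 20 were tested in the peptide study, with 11 higher and 9 lower and a median log2 fold change of 0.02. At an unadjusted p under 0.05, 3 were lower and none higher, beside 6.51% of all genes in either direction. These were the proprotein convertases *Pcsk6* and *Furin*, which cleave proproteins including proMMP14, and *Plau*, the urokinase plasminogen activator. *Pcsk6* was at 54.6 ± 6.29 CPM with Aβ42 and 66.1 ± 5.76 CPM with ScrAβ42, a log2 fold change of -0.28 (adjusted p = 0.639). *Furin* was at 165.5 ± 22.0 and 188.7 ± 15.1 CPM, a log2 fold change of -0.19 (adjusted p = 0.762), and *Plau* at 2.31 ± 0.847 and 3.31 ± 0.760 CPM, a log2 fold change of -0.53 (adjusted p = 0.740). Among the antibody hearts, 10 of 19 were higher and 9 lower, and none had an unadjusted p under 0.05. *Bsg* and *Cst3* were the most abundant of the list in both studies.

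Of 15 matrix substrates, 13 were tested in each study, with 5 higher and 8 lower with Aβ42 and 2 higher and 11 lower with 3D6. *Hspg2*, which encodes the basement membrane proteoglycan perlecan, was at 563 ± 39.9 CPM with Aβ42 and 680.9 ± 49.8 CPM with ScrAβ42, a log2 fold change of -0.27 (adjusted p = 0.589), with an exact permutation p of 0.00233. The small proteoglycan *Dcn* and the basement membrane collagens *Col4a1* and *Col4a2* were the most abundant per kilobase in both studies, with adjusted p from 0.772 to 0.986 in the peptide study and of 0.946 in the antibody study. None of the 13 passed the adjusted threshold.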

How the data were processed

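Total RNA of the left ventricle was sequenced after stranded library preparation. The authors trimmed the reads, mapped them with Salmon to GENCODE vM24 transcripts, and deposited whole counts per gene for the peptide study and estimated counts per transcript for the antibody study, neither normalised. For this work, transcripts were summed to genes through GENCODE vM21 (GRCm38), which lists 99.48% of the gene and 99.21% of the transcript identifiers, and rounded. The 0.38% of estimated counts on other transcripts stayed as rows of their own. In the peptide study, 1 count column that matched no labelled mouse was not used. Groups came from the labels.

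Each study was fitted separately with the quasi-likelihood test of edgeR 4.0.16 in R 4.3.3, two-sided, on genes whose mean count was 10 or more, with TMM scaling and Benjamini-Hochberg adjustment over all genes tested. The fit was tested on simulated data. CPM were scaled by the TMM factors, and log2 CPM used a prior count of 2. Single values were also compared by exact permutation over the 3432 or 12870 arrangements of the hearts, with numpy 2.4.6. Ranks for Spearman's rho came from scipy 1.17.1. Alternatives were DESeq2 1.42.0, limma-voom (limma 3.58.1), other scalings and filters, covariates, the most counted transcript and leaving out hearts. The endothelial covariate and the fit without hearts A and S were added after the data were seen.

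The 10 genes and the lists were chosen with earlier results of these data known. All 10 were named, and of each wider list and study up to 3 genes of unadjusted p under 0.05, taken by p, and the 3 highest per kilobase, of which the main ones are given. Of the 3 genes nearest to each member, at least the first is given. Promoter sequences are from RefSeq, GRCm38.p6.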

Additional observations from a re-analysis of the deposited data

Results flagged for a closer look

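For each gene and group, the gap between the most extreme heart and its neighbour was compared with the range of the group. Dixon's critical value has a nominal rate of about 5% for independent, normally distributed values. These values are CPM of genes measured in the same hearts, so no excess over chance is read from the count. Of 40 such comparisons, 9 exceeded that critical value. Heart S, a ScrAβ42 heart, was the highest of its group in 6 of these: *Mmp2* (138 CPM, the next heart at 79.5), *Mmp3* (25.0 against 5.68), *Mmp9* (4.02 against 1.62), *Timp1* (6.20 against 2.40), *Timp2* (319 against 136) and *Timp3* (624 against 385). The same heart held 5588 summed CPM of fibroblast markers and 402.8 of macrophage markers, each the most of all 14 hearts. It also held 15940 summed CPM of red cell markers. *Adamts1* reached 114 CPM in heart A of the Aβ42 group, with the next at 64.0 CPM. *Mmp9* reached 7.67 CPM in the heart 3D6 4, with the next at 1.56 CPM, and *Mmp2* reached 54.5 CPM in the control antibody heart 11, with the next at 42.7 CPM. The cause of these values was not tested.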

How the results depend on the processing

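No gene of the 10 passed an adjusted p of 0.05 under any alternative in either study, the smallest being 0.382 and 0.699. No paired analysis was made, because the groups share no replicate numbers. In the antibody study each control heart has a treated heart with a neighbouring number. Whether these numbers mark pairs of mice is not given in the sources used here, and a fit by such pairs was not tested. In the peptide study, 89 of 105 fold changes under the alternatives that left out no single heart kept their sign, and 16 did not. With the atrial marker score as covariate, the log2 fold changes were -0.55 (*Mmp9*), -0.19 (*Mmp14*), -0.17 (*Timp1*), -0.36 (*Timp2*), -0.13 (*Timp3*), 0.18 (*Timp4*) and -0.23 (*Adamts1*). *Mmp3* was 0.26 with limma-voom, 0.082 with the mitochondrial share as covariate, 0.23 as a difference of log2 CPM and 0.54 without both outlying hearts. *Adamts1* was -0.035 with limma-voom, -0.05 with the fibroblast score, -0.001 with the mitochondrial share, -0.035 as a difference of log2 CPM and -0.15 without both hearts. Leaving out each heart in turn moved *Mmp2* between -0.33 and 0.14, *Mmp3* between -0.40 and 0.73, *Mmp14* between -0.067 and 0.26, *Timp2* between -0.071 and 0.49, *Timp4* between -0.175 and 0.026 and *Adamts1* between -0.20 and 0.09.

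In the antibody study 99 of 106 kept their sign. With the fibroblast score, *Mmp2* was 0.013, *Mmp9* -0.24 and *Timp2* 0.035. *Mmp15* was -1.9e-05 with total counts only, -0.00017 with the atrial score, -0.058 with the mitochondrial share and -0.14 with the endothelial score. Leaving out each heart moved *Mmp15* between -0.026 and 0.094 and *Adamts1* between -0.27 and 0.075. It also moved *Mmp2* between -0.154 and -0.033, *Timp2* between -0.137 and -0.017 and *Timp3* between -0.12 and -0.012.

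Over all genes of the peptide study, those with an adjusted p under 0.05 numbered 0, but 12 with DESeq2, 42 with the fibroblast score and 0 to 3 without each heart, where leaving out the Aβ42 heart with the most *Timp4* gave 3 and heart S gave 1. Genes with an unadjusted p under 0.05, 780, became 1475 with no filter, 1332 with the fibroblast score, 1252 with the mitochondrial share and 609 to 1266 without each heart, the lowest without heart A and the highest without heart S. In the antibody study 447 became 1213 with no filter, 176 with the fibroblast score, 296 with the endothelial score and 256 (without 3D6 4) to 772 (without control 8). The 5 pairs of the peptide study became 25 with Pearson's r, 8 with total counts only, 3 with the atrial score removed, and 0 with the fibroblast score removed, without the 2 farthest hearts or without hearts A and S. The 1 pair of the antibody study became 4 with total counts only and 0 with Pearson's r, without the 2 farthest hearts or with the atrial score removed. Depth limits *Mmp9*, *Timp1* and *Mmp3*, whose median counts per heart were 7.5 to 23.5. The cause of these shifts was not tested.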
